A study of Rattus norvegicus with 6 samples.

Results

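Liver RNA of rats kept on a diet without iron was compared with liver RNA of rats kept on the same diet with iron. These are 2 samples of the 6 in the series, chosen by their labels and not by any measured value. Both groups are livers of Wistar rats, called mice in part of the labels, fed AIN-93G, a purified rodent diet, for 4 weeks. The control diet held iron and the other lacked it, and neither group carries a transgene or drug treatment in the labels. The sex and age of the rats are not given in the sources used here. RNA from 6 animals was pooled for each diet and hybridised to 1 one-colour array, so the spread between animals was averaged away and no test between diets was possible. The other 4 arrays, used here only for comparison, hold kidney RNA on the same diets and FAO cells, a rat hepatoma line, left untreated or given 100 µM of the iron chelator deferoxamine for 24 h.

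The liver is both the main iron store of the body and the organ that reports on it. Hepatocytes sense circulating and stored iron through transferrin receptors and through bone morphogenetic protein (BMP) signals from sinusoidal endothelial cells, and they answer by secreting the peptide hormone hepcidin, which makes other cells destroy the iron exporter ferroportin. When iron is scarce hepcidin is shut off, iron regulatory proteins stabilise the mRNA of transferrin receptor 1, and erythropoietic demand adds its own signals.

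After scaling each array to its 75th percentile (given below as scaled signal), 10219 genes had a liver value and 8513 of these were well above background on both arrays. For 1563 genes the control array and for 143 genes the iron-free array was not well above background, so only a bound, written "at least", could be given. Differences are iron-free minus control on the log2 scale, with ± the standard error (SE) from repeated spots, which covers spot noise and nothing about animals. A gene was called at 2-fold, a difference of 1. By that rule 659 genes (6.45%) were higher and 304 (2.97%) lower. Counts in the gene lists below are to be read beside these shares. For 6751 genes there were at least 2 spots on each array, which agreed wherever the array was well above background. Among these genes, referred to as read by agreeing spots, 358 (5.3%) were higher and 119 (1.76%) lower. Of the 358 and 119 calls, 227 and 17 were bounds, whose spots on the dim array were not required to agree. Of all calls 68.4% were increases, a split that became 96.3% when arrays were instead centred on the median of their detected probes, which moved the median of all genes from 0.017 to 0.59. The split was 56.0% when both arrays had to be well above background, and it turned to 44.3% increases with no filter on dim probes. The control array was the noisier of the pair. On it 41 of 264 blocks of spots had repeated spots that disagreed, against 0 on the iron-free array. For some genes with spots in those blocks a value without them is also given.

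The iron-free liver array stood apart in a second way. A set of 48 probes was bright on both FAO arrays, above a scaled signal of 1000, and not well above background on the control liver or on either kidney array. All 48 were well above background on the iron-free liver array, at a median of 6.34% of their signal on the deferoxamine FAO array (quartiles 5.45% and 7.36%). On the control liver array, where they were chosen to be dim, the same probes lay at a median of 0.787%. Uba1y, a Y-linked gene, read 8.14 on control liver, 381 on iron-free liver and 6525 on deferoxamine FAO. Akr1b7, an aldose reductase relative, read 16.8, 398 and 5777 in the same order. The share followed the treated FAO cells more closely than the untreated ones, with an SD of the log2 ratio of 0.45 against 0.82. Lgals4, a gut lectin, was at 6.94% of its deferoxamine signal and 2.92% of its untreated signal for one probe, and Mgarp, a mitochondrial protein induced by hypoxia, at 7.56% and 36.9%. A2m, an acute phase protein that liver itself makes, was the exception, its marker probe reading 739 on iron-free liver against a deferoxamine FAO signal of 2950.1.

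**Figure D1:**
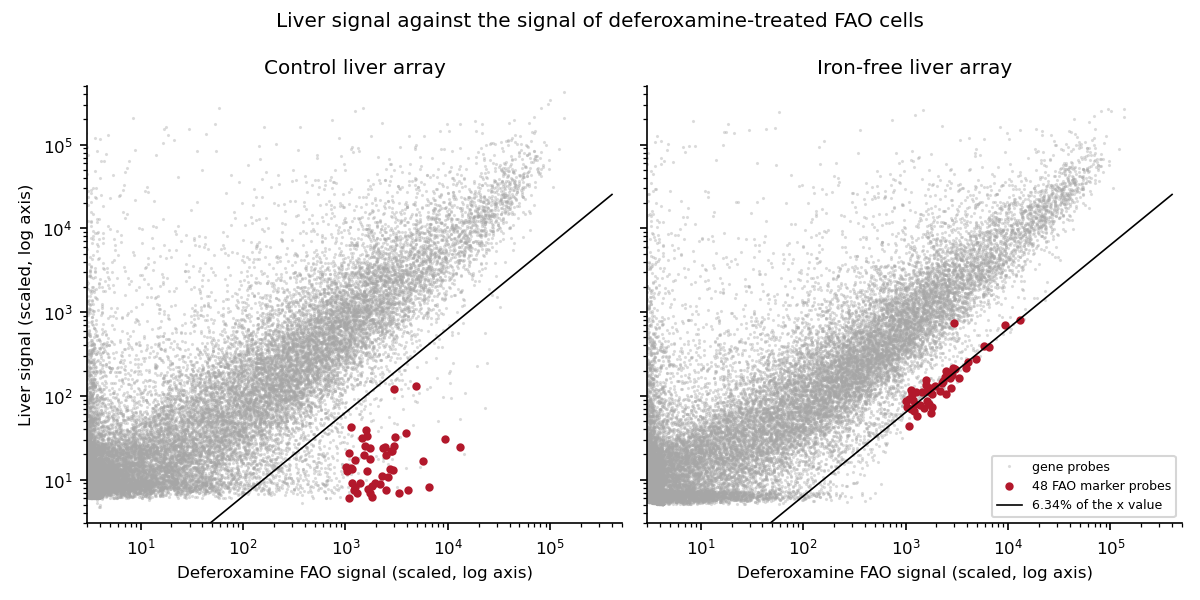
Scaled signal of each gene probe on the control liver array (left) and the iron-free liver array (right) against its signal on the deferoxamine FAO array, both axes logarithmic. Red points are the 48 FAO marker probes and the line is 6.34% of the FAO signal. On the iron-free liver the markers follow the line. On the control liver, where they were chosen to be dim, they lie below it.

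No such floor was found for any other pairing of source and array that could be examined, where markers lay at medians of 0.05% to 0.37% of their source. Among 94 probes bright on both FAO arrays and not well above background in kidney, chosen without reference to either liver, 46 were well above background on control liver and 94 on iron-free liver, and the lowest share was 0.125% on control and 3.53% on iron-free liver. The share was similar over the array, with medians of 6.54% to 7.46% in 4 equal bands of rows. The iron-free liver and deferoxamine FAO arrays sat in column 2 of adjoining rows of the slide, and the control liver and untreated FAO arrays in column 1 of the same rows. The cause was not tested. The FAO share of a gene, used from here on, is 6.34% of its deferoxamine FAO signal as a percent of its iron-free liver signal. Values are also given after subtracting that signal and scaling the array again where this changes them.

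Subtraction touched the increases far more than the decreases. Of the 358 genes read by agreeing spots that were higher, 208 stayed at least 2-fold higher, 94 kept a value or bound under 2-fold, 55 had no value left and 1 turned lower. Of the 119 lower genes, 97 stayed lower. Over all 10007 genes left with a value, 516 (5.16%) were higher and 297 (2.97%) lower. Of the 6591 among them with agreeing spots, 234 (3.55%) were higher and 114 (1.73%) lower. The FAO share was 50% or more for 101 of the 358 higher genes and for 60 (0.956%) of the 6274 genes that were not called.

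**Figure D2:**
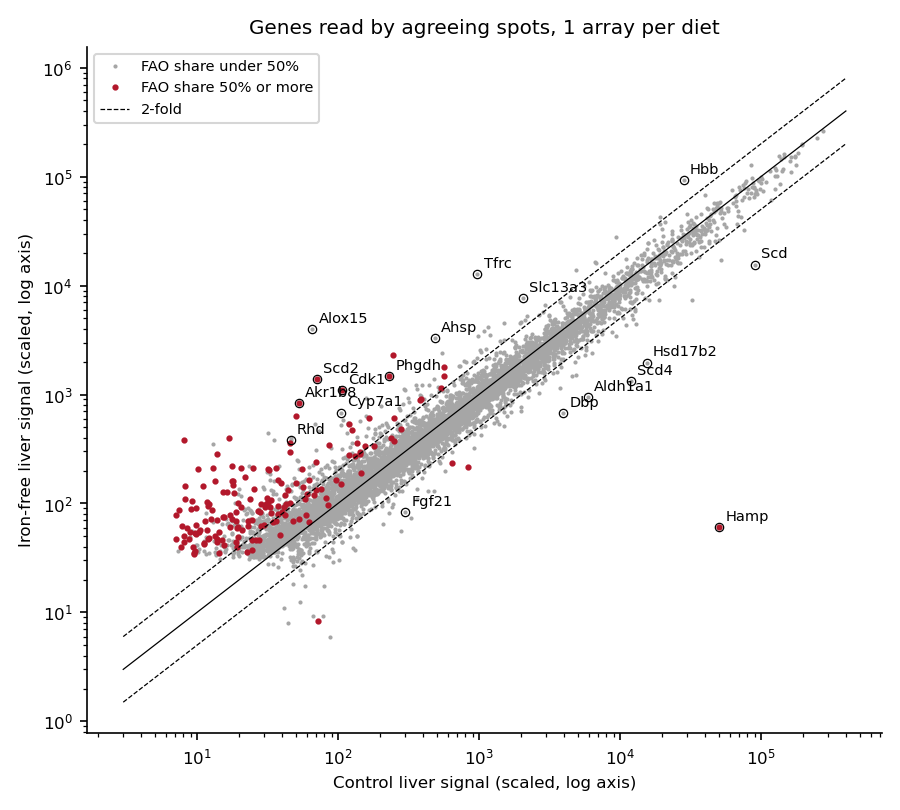
Scaled signal on the iron-free against the control liver array for the 6751 genes read by agreeing spots, both axes logarithmic, with the line of equality and dashed 2-fold lines. Red points have an FAO share of 50% or more; they gather in the dim upper left, while Tfrc, Ahsp and the genes below the lower line other than Hamp are almost all grey.

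Hamp, which encodes hepcidin, showed the largest difference of any gene named here. It read 50337 on the control array and 60.7 on the iron-free array, which made it 829-fold lower, a difference of -9.70 ± 0.22 over 10 spots on each array. The FAO share of what remained was 81.5%, and after subtraction Hamp was no longer above background, so that only a bound, of -10.82 or further below 0, could be given. Without 3 control spots in noisy blocks it was -9.46. Tfrc, transferrin receptor 1, went the other way, from 976 to 12809, 13.1-fold higher (3.71 ± 0.27), with an FAO share of 3.79% and a second probe at 3.01. Both genes lay far outside the 2-fold band with and without subtraction.

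The promoters of Hamp and Tfrc, from RefSeq on GRCr8, are shown because these genes carry the most direct readouts of iron in the data. Each runs from 250 bases before to 50 after the annotated start. In Hamp (chr1:95300222-95300521, minus strand) capitals mark a BMP response element, GGCGCC, and a STAT element, TTCNNNGAA. In Tfrc (chr11:81690269-81690568, minus strand) they mark the hypoxia response core ACGTG.
Hamp: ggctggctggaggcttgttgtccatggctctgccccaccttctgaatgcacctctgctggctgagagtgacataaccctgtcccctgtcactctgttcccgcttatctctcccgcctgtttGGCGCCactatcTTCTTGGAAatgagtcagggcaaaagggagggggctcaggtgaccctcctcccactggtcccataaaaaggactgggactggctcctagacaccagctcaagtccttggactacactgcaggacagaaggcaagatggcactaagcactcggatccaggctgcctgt
Tfrc: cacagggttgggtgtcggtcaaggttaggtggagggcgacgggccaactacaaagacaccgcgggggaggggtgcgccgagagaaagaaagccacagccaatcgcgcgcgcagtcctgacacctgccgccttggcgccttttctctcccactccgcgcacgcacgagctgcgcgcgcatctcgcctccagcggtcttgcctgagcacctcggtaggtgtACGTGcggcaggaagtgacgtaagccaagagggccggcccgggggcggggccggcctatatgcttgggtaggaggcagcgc
On either strand, GGCGCC occurs in 3688 of 33469 rat promoters of this length, TTCNNNGAA in 8.87% and ACGTG in 19.3%. The Tfrc window also holds GGCGCC, and neither marked Hamp motif overlaps the other. A match describes the letters only.

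The rest of the hepcidin pathway moved little beside Hamp. Of 21 measured genes on the hepcidin and BMP-SMAD list, Hamp among them, 1 was called higher and 2 lower, where 6.45% and 2.97% of all genes were, with a median of -0.19 against 0.017 for all genes. Smad7, the inhibitory SMAD induced by BMP signals, read 471 on the control array and 268 on the iron-free array (-0.81 ± 0.29). Id1, another BMP target, was not well above background on control liver and gave at least 0.84, with 31.9% FAO share. The ligand gene Bmp2 gave -0.62. Bmp4 was the member called higher, by at least 1.05 to a dim 81.1 (at least 0.71 without a noisy control spot), and Bmp6 had no liver value. Hjv, the hepatocyte BMP co-receptor, read 1447 and 723, just past the 2-fold line, but differed by -0.56 without a noisy control spot and by -0.89 after subtraction, and the iron sensors Tfr2 and Hfe gave -0.35 and -0.48. Tmprss6, the protease that cuts hemojuvelin, gave -0.49, and Erfe, the erythroid hormone that lowers hepcidin, 0.19.

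Genes of iron uptake, storage and export other than Tfrc mostly stayed within 2-fold. Among 12 import genes 3 were higher and 1 lower. Scara5, a ferritin receptor read by a single spot, went from 8.50 to 195 (at least 2.66), and Steap3, the ferrireductase of the transferrin cycle, fell to 44.3 (-1.27, or -0.90 without a noisy spot). The difference of Tf, transferrin itself, was 1.05 with both control spots and -0.22 without the one in a noisy block, so its direction depended on that spot. The divalent metal transporter Slc11a2 gave 0.62. Among 9 storage, export and sensing genes 0 were higher, and 1, Fbxl5, the iron-sensing subunit that marks IRP2 for destruction, was lower (273 to 129, -1.08 ± 0.33). The ferritin genes Fth1 and Ftl1 differed by -0.088 and -0.32. The exporter Slc40a1, ferroportin, differed by -0.13 on the probe with agreeing spots and by 0.99 on another, so its level was not settled.

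**Figure D3:**
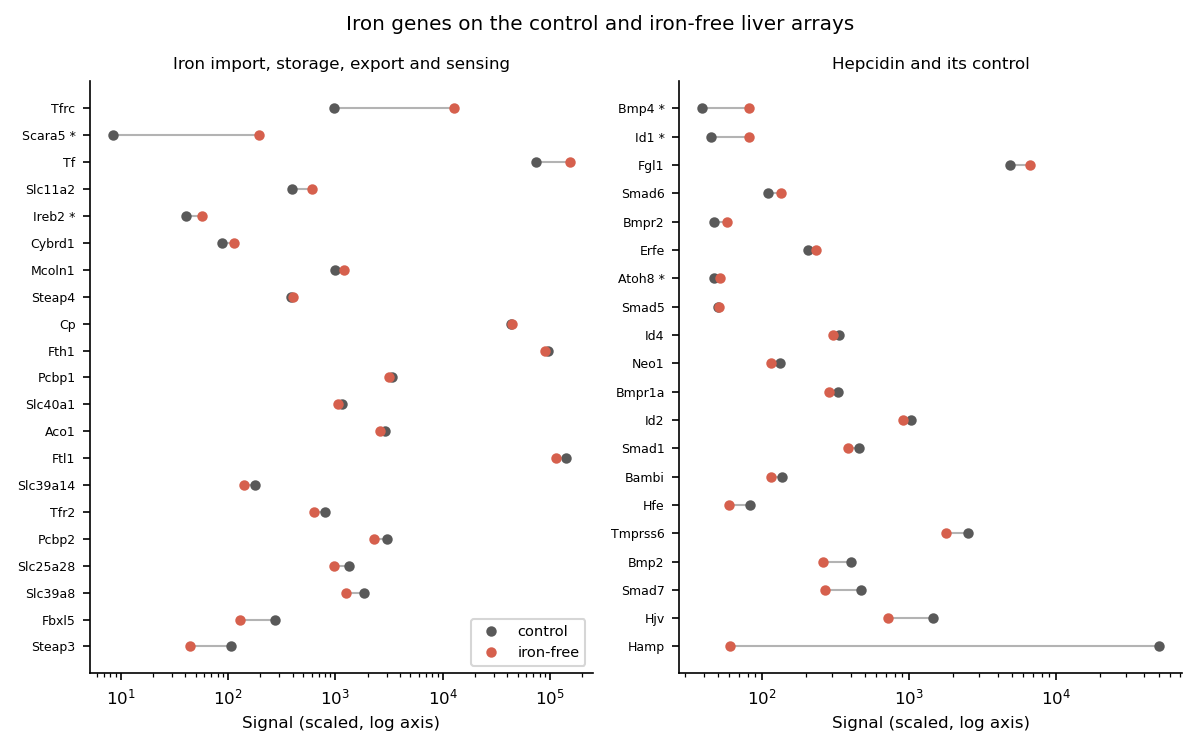
Scaled signal of measured iron genes on the control (grey) and iron-free (red) liver arrays, logarithmic axes, ordered by difference; an asterisk marks genes not well above background on 1 array. Hamp spans from 50337 down to 60.7 and Tfrc from 976 up to 12809, while most other pairs of points lie close together.

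Red cell genes were higher in iron-free liver. Of 17 measured erythroid genes 7 were called higher and 0 lower, where 6.45% and 2.97% of all genes were. Their median was 0.84, and the counts were 7 and 0 after subtraction. Their FAO shares had a median of 0.247%. Of the 12 among them read by agreeing spots, 4 were higher and 0 lower, with a median of 0.71. Ahsp, the chaperone of alpha globin, rose from 484 to 3270.4 (2.76 ± 0.27). Alas2, which catalyses the first step of heme synthesis in red cell precursors, rose from 1093 to 3815 (1.80 ± 0.27), and Rhd, a blood group membrane protein, from 46.2 to 384 (3.06 ± 0.56). Slc4a1, the anion exchanger of the red cell membrane, gave 1.69, without agreeing spots. The globin probes did not move alike, and globin copies can share a probe. Hbb read 28377 and 92535 (1.71), with both control spots in noisy blocks and a second probe at 0.47. Hbb-b1 gave 0.58, and the probes of Hba-a1 disagreed at 0.014 and 1.79. Tal1, a transcription factor of early erythroid cells, gave 0.03. In tissue RNA, more cells of a type and more RNA per cell cannot be told apart.

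The Alas2 promoter (chrX:22895200-22895499, plus strand, same source and window) is shown for the GATA element AGATAA that it holds, in capitals, because Alas2 is a textbook target of the erythroid factor GATA1. The element is present on either strand in 11.6% of promoters.
Alas2: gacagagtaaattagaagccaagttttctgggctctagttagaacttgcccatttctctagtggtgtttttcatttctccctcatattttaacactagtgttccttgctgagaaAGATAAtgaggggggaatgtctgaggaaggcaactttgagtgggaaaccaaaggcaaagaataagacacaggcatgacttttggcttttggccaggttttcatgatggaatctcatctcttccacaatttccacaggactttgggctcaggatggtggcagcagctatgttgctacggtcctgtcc

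The hepatic enzymes of heme synthesis did not follow Alas2. Of 13 genes on that list only Alas2 was called. Alas1, its housekeeping counterpart, read 43057 on the control array and 24777 on the iron-free array (-0.80 ± 0.27), and Tmem14c, a porphyrin transporter, gave -0.79. Hmox1, which breaks heme down, gave 0.53 with an FAO share of 14.3%, and 0 of 12 genes of heme breakdown, transport and scavenging were called in either direction. Of 25 genes of iron-sulfur cluster assembly 0 were higher and 1, Iba57, was lower (-1.24, on 1 spot in a noisy block, with another probe at -0.70).

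Genes that hepatocytes use along the axis from portal vein to central vein split by zone. Of 21 measured genes typical of pericentral hepatocytes 8 were higher and 0 lower (median 0.41). Among the 14 read by agreeing spots 4 were higher and 0 lower, with a smaller median of 0.22. Of 23 periportal genes 0 were higher and 4 lower (median -0.55), and of the 17 with agreeing spots 0 and 3 (median -0.60). Both counts were the same after subtraction. Of all genes as scaled, 6.45% were higher and 2.97% lower. The pericentral increases included the ammonia and glutamate genes that ring the central vein: Slc1a2, a glutamate transporter, was at least 10.9-fold higher (35.3 to 384, a second probe differing by 1.70). Rhbg, an ammonia transporter, rose from 52.2 to 243 (2.22 ± 0.56). Glul, glutamine synthetase, rose from 1132 to 2744 (1.28, spots not agreeing), and Oat, ornithine aminotransferase, from 8344 to 29201 (1.81, spots not agreeing).

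Other pericentral genes were also higher. Slc13a3, a dicarboxylate transporter, rose from 2039.8 to 7659 (1.91 ± 0.27). Cyp1a2, the caffeine-metabolising P450, rose from 2600.0 to 16427 (2.66, spots not agreeing), and Rgn, the calcium-binding protein regucalcin, from 6714 to 18781 (1.48, or 1.12 without 3 of 8 control spots in noisy blocks). Several pericentral genes were not called: Cyp2e1, the ethanol-inducible P450, gave -0.73, Gulo, the last enzyme of vitamin C synthesis, -0.26, and Notum, a Wnt inhibitor, 0.051. Axin2, a Wnt target, has only a bound, at least 0.24, which does not show whether it passed 2-fold. Of the 8 increases, which include Cyp7a1 below, 4 were read by agreeing spots.

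The periportal decreases were enzymes of histidine and folate catabolism and a serine carrier. Hal, histidase, fell from 12450.5 to 4919.9 (-1.34 ± 0.27), Ftcd, the next folate-linked step, from 24277 to 9870.1 (-1.30 ± 0.27), Uroc1 by at least -1.18 on 1 spot, and Sfxn1, a mitochondrial serine transporter, from 481 to 131 (-1.87 ± 0.31). The gluconeogenic genes Pck1, G6pc1 and Fbp1 gave -0.80, -0.55 and -0.70, and Cps1, the entry of the urea cycle, -0.33. Of 34 hepatocyte markers 1 was higher and 1 lower, where 6.45% and 2.97% of all genes were, with a median of -0.13. Alb gave 0.73 with spots not agreeing.

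**Figure D4:**
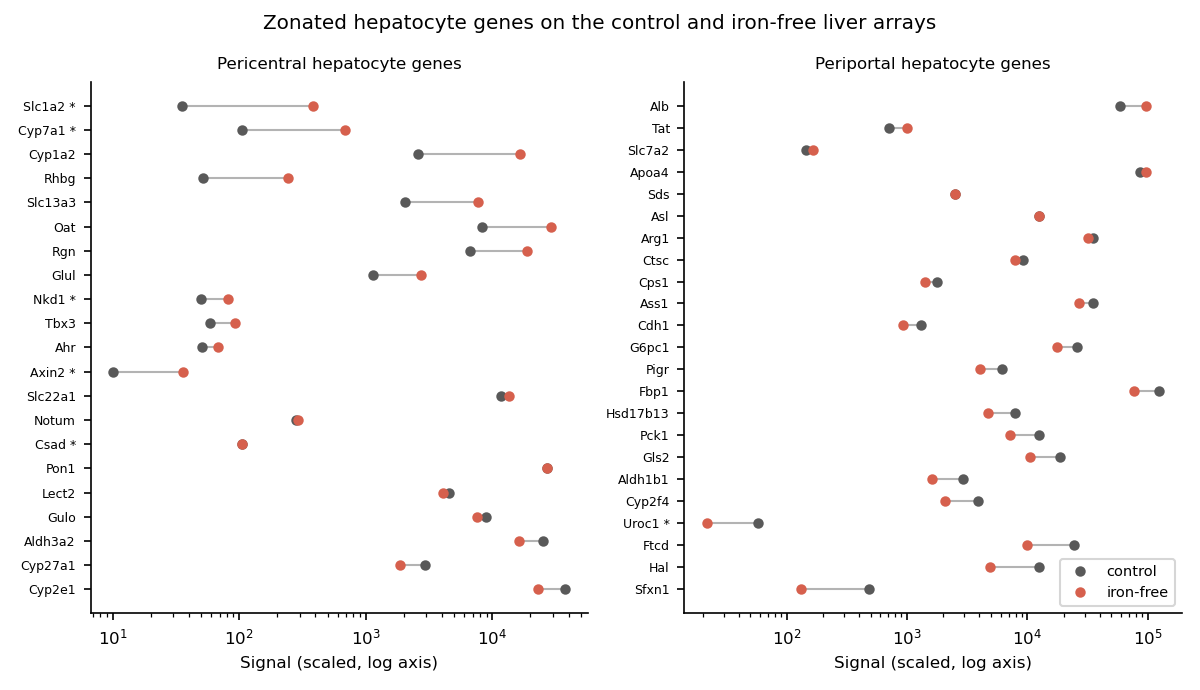
Scaled signal of pericentral (left) and periportal (right) hepatocyte genes on the control (grey) and iron-free (red) liver arrays, logarithmic axes, ordered by difference; an asterisk marks genes not well above background on 1 array. At the top left 8 pericentral genes were called higher, and no periportal gene was; the wide gap of Axin2 starts below background and gives a bound of only 0.24.

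Fatty acid oxidation genes were lower. The list held 40 measured genes of fatty acid oxidation and of the lipid-sensing receptor PPAR-alpha. Of these, 12 were called lower and 0 higher, where 2.97% and 6.45% of all genes were, and 36 had a negative difference. The median was -0.76, and -0.68 after subtraction, with 12 still lower. Cpt1a, which admits long-chain fatty acids to mitochondria, fell from 3731 to 1139.9 over 10 spots (-1.71 ± 0.11), and its partner Cpt2 from 5629 to 2328 (-1.27 ± 0.12). Ehhadh, of the peroxisomal pathway, fell from 1689 to 686 (-1.30 ± 0.28). The microsomal omega-hydroxylases Cyp4a1 and Cyp4a3 gave -1.16 and -1.42 (spots of Cyp4a3 not agreeing), and the thioesterase Acot2 -1.08.

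Secreted members of the list were lower too. Fgf21, the fasting hormone, read 301 on the control array and 82.6 on the iron-free array (-1.86 ± 0.18), and Angptl4, the lipoprotein lipase inhibitor, 12236 and 5411 (-1.18 ± 0.27, or -0.91 without a noisy control spot). Ppara itself gave -0.21 at a dim 87.6. Slc25a47, a liver mitochondrial carrier, was among the 12 largest decreases at 32439 and 7420.4 (-2.13 ± 0.27), and so was the serine/threonine kinase gene Nim1k (-1.73). Of 35 genes of respiratory complex I 1 was lower and 0 higher, and of 41 genes of complexes II to V 1 and 0, with medians of -0.18 and -0.16. The single calls, Ndufv3 and Cox7a2, each rested on 1 spot, and other probes of these genes gave -0.23 and 0.48.

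Of the stearoyl-CoA desaturases, which make monounsaturated fat, Scd, Scd3 and Scd4 were lower. Scd read 90733 on the control array and 15552 on the iron-free array (-2.54 ± 0.27), Scd4 11912 and 1320.3 (-3.17 ± 0.27) and Scd3 1912 and 287 (-2.73, 1 spot). Scd2 appeared to rise, from 70.8 to 1379.7, at least 19.5-fold, but its FAO share was 105% and it had no value after subtraction. Of 29 genes of fatty acid and triglyceride synthesis 0 were higher and 2 lower: Me1, malic enzyme, gave -1.11 (-0.92 without 2 noisy control spots) and Cidea, a lipid droplet protein, -1.13. Fasn, fatty acid synthase, gave -0.98 and Srebf1, its regulator, -0.48. Pklr, liver pyruvate kinase, gave -1.36 with spots not agreeing.

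Cholesterol synthesis genes moved the other way from fatty acid oxidation. Of 28 measured, 9 were higher and 0 lower (median 0.80), and 10 and 0 after subtraction (median 0.74). Of all genes, 6.45% were higher as scaled and 5.16% after subtraction. Idi1, isopentenyl isomerase, rose from 983 to 3478 (1.82 ± 0.27), and Mvd, mevalonate diphosphate decarboxylase, from 295 to 1113 (1.92 ± 0.28). Sqle, squalene epoxidase, gave 2.59 with spots not agreeing. Their FAO shares were 8.58%, 24.3% and 17.9%, and after subtraction the differences were 1.81, 1.63 and 2.42. Msmo1, a sterol oxidase, rose from 6704 to 16314 (1.28 ± 0.25). Srebf2, the transcription factor that drives the pathway, stayed within 2-fold (0.41).

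Bile acid genes showed 1 large increase. Cyp7a1, whose product controls how fast cholesterol becomes bile acid, was not well above background on control liver (105) and read 680.3 on iron-free liver, at least 6.49-fold higher, or a difference of at least 2.36 without 2 of its 10 control spots. Nr0b2, the small heterodimer partner that represses Cyp7a1, fell from 18857 to 7316 (-1.37 ± 0.27). No other gene of the 24 on that list was called as scaled. After subtraction Fgfr4, the hepatocyte receptor for an intestinal hormone that represses bile acid synthesis, was also called, its bound moving from at least 0.96 to at least 1.02. Cyp8b1 and Cyp27a1, other enzymes of the pathway, gave -0.79 and -0.65. Among lipid carriers 2 dim genes were higher. Lpl, lipoprotein lipase, went from 33.7 to 134 (at least 1.99, or 1.69 without noisy control spots). Fabp4, a fatty acid binding protein of fat cells, macrophages and endothelium, went from 29.5 to 142 (at least 2.21, or 1.84 without a noisy control spot).

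Retinoid and alcohol metabolising enzymes included some of the largest decreases. Of 15 retinoid genes 4 were lower and 0 higher, where 2.97% and 6.45% of all genes were. Aldh1a1, a retinaldehyde dehydrogenase, fell from 5927 to 949 (-2.64 ± 0.25). The alcohol dehydrogenases Adh4, Adh1c and Adh7 gave -2.17, -1.64 (without agreeing spots) and -1.45. Adh7 had an FAO share of 60.7%, so that subtraction made its decrease larger, -2.68. Hsd17b2, which inactivates estradiol and testosterone, fell from 15455 to 1964 (-2.98 ± 0.27). The storage enzyme Lrat gave -0.50 and the plasma carrier Rbp4 0.27.

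Clock output genes were lower and some clock repressors and activators higher. Dbp, a strongly rhythmic transcription factor, fell from 3946 to 670.1 (-2.56 ± 0.25, second probe -2.60). Its relative Tef gave -1.03 (-0.99 without 4 noisy control spots) and the repressor Nr1d1 -1.05 (-0.99 after subtraction). Cry1, Bmal1 and Rora gave 1.24, 1.01 and at least 1.40. In all 3 of 17 clock genes were higher and 3 lower, where 6.45% and 2.97% of all genes were. After subtraction 2 were still lower. Clock gave 0.40. Time of killing is not given in the sources used here.

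Hepatocyte transcription factors were lower more often than higher. Of 26 measured 5 were lower and 1 higher, where 2.97% and 6.45% of all genes were, with a median of -0.35. Hnf4a, the central hepatocyte factor, fell from 124 to a dim 58.2 (-1.09 ± 0.55), and Pparg from 136 to 50.3 (-1.44 ± 0.55). Onecut1 gave -1.03 (-0.93 after subtraction, when 4 factors were lower), Cebpa -0.65 and Ppara the value above. Cebpd, an acute phase factor, rose from 804 to 1987 (1.31 ± 0.26). The cell cycle gene Ccnd1, cyclin D1, was among the 12 largest decreases (366 to 110.0, -1.73 ± 0.31) although its FAO share was 45.9%.

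Genes induced by the hypoxia-inducible factors, whose hydroxylases need iron, were partly higher. Of 24 measured 10 were higher and 1 lower, where 6.45% and 2.97% of all genes were. After subtraction only 4 were higher, where 5.16% of all genes were, while the median of the list was 0.58 before and 0.60 after. The members that stayed called were Egln3, a HIF prolyl hydroxylase (at least 2.15, at least 1.84 after subtraction), Ero1a, an endoplasmic reticulum oxidase (1.43, 1.30), P4ha1, a collagen prolyl hydroxylase (at least 1.40, at least 1.42), and Kdm3a, a histone demethylase (at least 1.87, at least 1.45). Kdm3a was read without agreeing spots. Adm, Slc2a1 and Hk1 had FAO shares of 45.7%, 37.3% and 34.4% and were within 2-fold after subtraction. Ddit4, at 41.6%, has only bounds, at least 1.58 as scaled and at least 0.92 after subtraction, so it lost the call without being shown to lie within 2-fold. Without 3 noisy control spots the value of Ddit4 as scaled was 0.97, also short of a call. Vegfa, a classical target, gave 0.066, and Angptl4 was lower, as above. Of 22 glycolysis genes 5 were higher, and 2 after subtraction, when Aldoa went from 1.40 to 0.41.

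Cell cycle lists held the most increases of the lists as scaled, and few after subtraction. Of 33 measured G2/M and mitosis genes 26 were higher (median 1.49), where 6.45% of all genes were. Of 28 DNA replication genes 14 were higher (median 1.01). The median FAO shares of these lists were 73.0% and 54.6%. After subtraction 17 G2/M genes kept a value, of which 1 was higher and 1 lower (median 0.45), and 21 replication genes, of which 2 were higher and 2 lower (median 0.077). Of all genes with a value after subtraction, 5.16% were higher and 2.97% lower. Cdk1, the mitotic kinase, rose to 1097 (3.36 ± 0.18), and its deferoxamine FAO signal was 14785, so that its difference after subtraction was 0.70. Mki67, the proliferation marker, went from at least 2.97 to at least 0.63, and Ccna2 and Top2a had no value left. Rrm2, the iron-dependent subunit of ribonucleotide reductase, went from 3.21 to 1.71 with an FAO share of 67.4%, and was 1 of the 2 replication genes still higher, although a second probe gave 0.10. The other, Ccne1, cyclin E1, had an FAO share of 2.06% and gave 1.57, but it was the reverse case among FAO arrays, at 1233 untreated and 52.4 with deferoxamine.

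Calls in the stress and antioxidant lists partly depended on the same FAO share. Of 26 genes of the integrated stress response 6 were higher and 1 lower, and 0 and 2 after subtraction. Phgdh, the first enzyme of serine synthesis, went from 2.68 to 0.26, Mthfd2 from 1.98 to -0.91, and Gdf15, a stress hormone with an FAO share of 89.8%, had no value left. Asns, a target of ATF4, gave 0.63, Atf4 -0.18 and Ddit3 0.016. Of 28 NRF2 targets 2 were higher, near the 6.45% of all genes called higher, and 3 lower, where 2.97% of all genes were. After subtraction 0 were higher and 4 lower. Akr1b8, an aldose reductase relative, was among the 12 largest increases (52.6 to 828, 3.98 ± 0.56) and had an FAO share of 99.7%. Gstp1 went from 1.66 to -0.62. The core targets Gclc, Txnrd1 and Srxn1 gave -0.20, -0.036 and 0.28. Nqo1, another core target, was called higher as scaled, by at least 1.39 to a dim 88.1 with an FAO share of 31.2%. After subtraction its bound was at least 0.96, so it lost the call without being shown to lie within 2-fold.

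Immediate early genes kept most of their calls. Of 25 measured 7 were higher and 0 lower, where 6.45% and 2.97% of all genes were. After subtraction the counts were 6 and 0. Egr1 rose from 393 to 1224 (1.64 ± 0.13, 1.52 after subtraction) and Btg2, an antiproliferative gene, from 197 to 1434 (2.86, spots not agreeing). Nr4a1 went from at least 3.67 to at least 1.57 with an FAO share of 78.4%, and Atf3 from 1.90 to 0.85. Jun and Dusp1 gave 0.15 and -0.068.

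**Figure D5:**
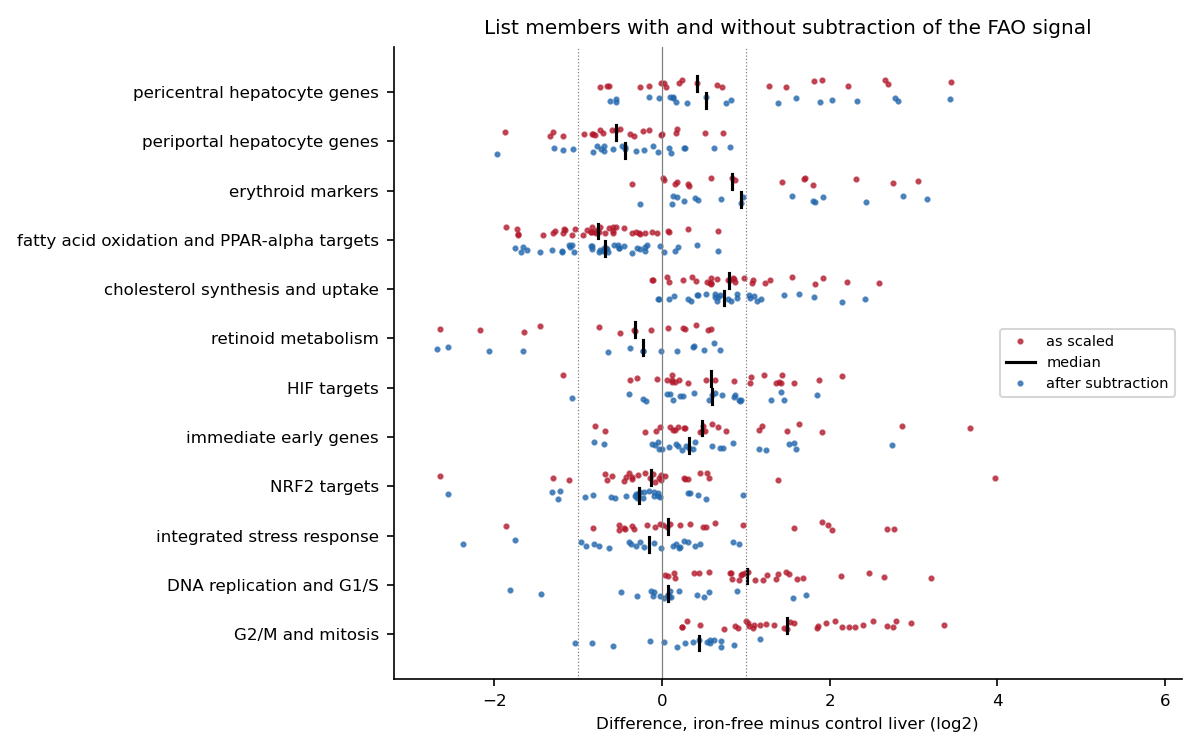
Difference, iron-free minus control liver on the log2 scale, of each measured member of 12 gene lists, as scaled (red) and after subtraction of the FAO signal (blue), with medians as black bars and dotted lines at 2-fold. The medians of the cell cycle lists move from 1.49 and 1.01 to 0.45 and 0.077, while the erythroid median moves from 0.84 to 0.94 and the fatty acid oxidation median from -0.76 to -0.68.

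Markers of the other liver cells differed by list in how often they were called, where 6.45% of all genes were higher. Of 18 endothelial genes 4 were higher and 0 lower (median 0.42), 3 of them with agreeing spots. Fcgr2b, the Fc receptor of sinusoidal endothelium, rose from 1011 to 2549.7 over 10 spots (1.34 ± 0.12), and Lyve1 from 523 to 1068 (1.03 ± 0.26), while the pan-endothelial Pecam1 and Kdr gave 0.18 and -0.57. Of 20 Kupffer cell and macrophage genes 2 were higher and 0 lower, near the 6.45% of all genes called higher, and 1 of them had agreeing spots: Marco, a scavenger receptor, gave 1.07 with both control spots in noisy blocks and Lyz2, lysozyme, 1.51, while Clec4f and Cd163 gave 0.21 and 0.25. Of only 5 measured platelet genes 2 were higher, and Pf4, a platelet chemokine, rose from 194 to 505 (1.38 ± 0.13). Of 5 measured neutrophil genes 3 were higher, and 2 of the 4 left after subtraction. The neutrophil genes S100a8 and S100a9 gave at least 1.53 and 1.45 at 110.0 and 246. The other call, Hdc, at least 1.05, had an FAO share of 114% and no value after subtraction. Of 9 T and NK cell genes and 14 stellate cell genes none was called in either direction. Summed scaled signals of the endothelial list were 12033 on control and 12417 on iron-free liver, and those of the Kupffer list 50571 and 55415.

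Among single genes outside these lists the largest increase not at the FAO share was Alox15, the 12/15-lipoxygenase. It was not well above background on control liver (66.0) and read 3965 on iron-free liver, at least 60.1-fold higher, or a difference of at least 4.41 without 1 noisy control spot, and its FAO signals were 4.69 and 3.63. Pbsn, the lipocalin probasin, read 32.2 and 447 (at least 3.80). Gstm3, a glutathione transferase, rose from 68.8 to 533 (2.96 ± 0.45, second probe 3.12). Cd52, a leukocyte surface antigen, rose from 108 to 578 (2.41 ± 0.38), Nat8, an N-acetyltransferase, from 545 to 2402 (2.14 ± 0.26), and Pla1a, a phosphatidylserine phospholipase, from 117 to 532 (2.19 ± 0.18).

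Single decreases outside these lists included Cryl1, a crystallin-related dehydrogenase, from 836 to 217 (-1.95 ± 0.27, FAO share 52.5%). The conjugating enzymes Ugt2b1 and Sult2a6 fell from 4578 to 1486 (-1.62 ± 0.25) and from 13019 to 4424 (-1.56 ± 0.27). Ephx1, the microsomal epoxide hydrolase, gave -1.30, Gpd1, glycerol-3-phosphate dehydrogenase, -1.14 and Shmt1, a serine hydroxymethyltransferase, -1.14. The other decreases ending below background were dim on control liver, with Fcar at 88.1, Helz at 102, Entpd8 at 91.5 and Cldn7 at 79.8. Increases with agreeing spots included the proteasome subunits Psma2 and Psma4 (1.38 and 1.25), the interferon-induced Rsad2 (1.31), the bile duct keratin Krt7 (1.30), the glycine cleavage enzyme Gldc (1.01) and Bcl3, a cofactor of NF-kappa B (1.54). Of 7 measured bile duct genes 1, Krt7, was higher and 1, Epcam, was lower (-1.02, on 1 spot), with a median of 0.15.

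Remaining members of the iron lists lay within 2-fold. Cp, ceruloplasmin, read 43499 and 43792, and the zinc and iron carriers Slc39a8 and Slc39a14 gave -0.55 and -0.34. Aco1, iron regulatory protein 1, gave -0.17 and Ireb2, its relative, at least 0.49. The BMP receptor genes Bmpr1a and Bmpr2 gave -0.19 and 0.28, the signal carriers Smad1 and Smad5 -0.25 and 0.017, and the target Smad6 0.29.

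Other lists held few calls, where 6.45% of all genes were higher and 2.97% lower. Of 58 ribosomal protein genes 1 was higher and 0 lower, of 24 antioxidant enzymes 0 and 0, of 26 autophagy and lysosome genes 0 and 0, and of 26 citric acid cycle genes 0 and 1. The P450 list had 39 measured genes, of which 3 were higher and 3 lower, among them Cyp3a9, a female-predominant form, from 444 to 1218 (1.46 ± 0.28). Of 26 acute phase genes 2 were higher, near the share of all genes, 1 of them A2m, at 1.98 with an FAO share of 29.7%. Hp and Crp were within 2-fold at -0.09 and 0.038.

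Kidney RNA on the same diets was set beside these values. Whether the kidney arrays show the floor seen on the iron-free liver array was not tested, since the markers were chosen to be dim there. Of 159 genes with agreeing liver spots that were higher in liver after subtraction and had a kidney value, 23 (14.5%) were higher in kidney, and these were 22.5% of the 102 genes higher in kidney among the 5436 measured in both, where 1.88% of all genes were higher. The labels do not say whether kidneys and livers came from the same animals. Tfrc read 669 and 5333 in kidney (2.99), Ahsp 103 and 1157 (3.49), and Alox15 20.8 and 1084 (at least 3.92). Of 76 genes lower in liver after subtraction that had a kidney value, 3 (3.95%) were lower in kidney, against 0.423% of the 5436. They were Dbp, Scd4 and Angptl4, at -1.11, -1.25 and -1.66 in kidney. Hamp had no kidney value. The G2/M genes, higher in liver as scaled, had a kidney median of 0.14 with 0 of 17 higher, and the cholesterol genes 0.19 with 0 of 24, where 3.17% of all kidney genes were higher and 1.32% lower.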

How the data were processed

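Each of the 6 samples is 1 one-colour Agilent rat array of pooled RNA. Per the file headers, the authors extracted spot intensity with Agilent Feature Extraction 10.7.3.1, and gProcessedSignal is a background-subtracted, linear intensity. The authors' deposited table gives the same intensity and a log2 value scaled to the 75th percentile of each array, which served as an alternative. The genome build in the headers is rn4, and no array coordinates are printed.

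Here log2 intensity was averaged over the unflagged spots of 30367 gene probes, and arrays were set equal at the 75th percentile, taken over 9091 probes that every array detected well above background. Where 1 array was not well above background the difference is a bound, measured from that array's dimmest detected probe or from the gene's own signal if higher. Bounds under 1-fold were dropped. Spots agreed when at least 2 on each array had an SD of at most 0.5 (log2) wherever the probe was well above background. For each gene ID, 24272 probes having one, the probe with agreeing spots and then the brightest in liver was used. SEs pool the spot spread in 20 bins of signal. Noisy blocks are squares of 16 by 16 spots whose median departure from the other spots of a probe exceeded 0.4. Symbols were updated through RefSeq (19142 of 19958 IDs found), and 8131 of the 10219 genes had a promoter sequence on GRCr8.

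No p-value is given, since each group is 1 array. Members, lists (68, with 6 of 1848 entries not matched) and tests were chosen with earlier results of these data known. The rule for named genes took the 12 largest increases and decreases among bright genes with agreeing spots, a set of iron and hepatocyte genes in every case, up to 3 called members per list and direction with the iron and hepcidin genes, 5 bounds per direction and genes opposite in kidney. Not all of these are described, and other genes, those described by their FAO share among them, were chosen after their values were seen. The steps were tested on simulated arrays. Computation used pandas 2.3.3 in Python 3.11.15, with limma 3.58.1 in R 4.3.3 for normexp. The scanner files hold no mean signal, so normexp (offset 50) used the median signal. Some genes of the lists are counted in them but not reported by name here.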

Additional observations from a re-analysis of the deposited data

Results flagged for a closer look

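The signal of FAO marker probes on the iron-free liver array lies outside the comparison of diets, and its cause was not tested. The 48 marker probes stood at a median of 6.34% of their deferoxamine FAO signal there. On the control liver array, where they were chosen to be dim, they stood at 0.787%. The 94 probes chosen without reference to either liver stood at medians of 9.07% on iron-free and 3.21% on control liver.

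Of the genes read by agreeing spots in both tissues, 2 were called in opposite directions on the iron-free diet, and the difference between tissues was not tested. Spetex-2A was lower in liver (a bound of -1.62) and higher in kidney (at least 1.18). Rbm25, an RNA-binding splicing factor, was lower in liver (a bound of -1.29) and higher in kidney (1.34), while another liver probe gave 0.51.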

How the results depend on the processing

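With 1 array per diet, no result has a replicate check, and arrays cannot be left out. No paired analysis was possible because each group is a single array. Against 659 higher and 304 lower genes (358 and 119 with agreeing spots), centring on the median of detected probes gave 2115 and 81 (1245 and 26), no filter on dim probes 1418 and 1785 (868 and 1106), a 1.5-fold rule 1467 and 956 (831 and 507) and a 3-fold rule 249 and 81 (121 and 26). Normexp gave 355 and 179 (121 higher with agreeing spots). Keeping genes well above background on both arrays left 279 higher (131 with agreeing spots), and leaving out noisy blocks 230 higher with agreeing spots. Subtraction of the FAO signal, and normexp on median in place of mean signals, were chosen after seeing the data. Subtraction left 234 higher with agreeing spots, and 225 at the upper quartile of the share. The other scalings, the brightest probe, the authors' log2 column, spot limits of 0.3 and 0.7, and the lower quartile of the share kept these counts within 1.5 times.

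Some genes changed sign. Slc40a1 gave 1.41 and Cox7a2 0.92 under normexp, without noisy blocks Tf gave -0.22, Cox7a2 0.076, Rbm25 0.53 and Gsta3 -0.39, and with the brightest probe Cox7a2 0.48, Rbm25 0.51 and Gsta3 -0.41, the last 2 also when both arrays had to be above background. The neutrophil list's median became -0.30 without a filter. Subtraction gave Gstp1 -0.62, Akr1b8 -0.92 and Mthfd2 -0.91. At the upper quartile Gstp1 gave -2.30, Akr1b8 -0.91, Cdk1 -1.93, Phgdh -1.87, Mthfd2 -1.63 and the DNA replication list's median -0.17. The cause was not tested. Signal near background limits the bounds, and a share of FAO signal assumed equal for all probes limits the subtraction.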
